A study of Homo sapiens with 4 samples.

Results

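The genes described here encode the membrane transporters of 7 solute carrier families, SLC1A, SLC3A, SLC6A, SLC7A, SLC36A, SLC38A and SLC43A, through which most amino acids enter and leave cells. The members were set by a rule of names, chosen with earlier results of these data known. They are the protein-coding genes whose symbol is 1 of these prefixes and a number. Values were given for 46 of them, out of 59 such genes in the reference and 27658 identifiers in all, with 44 listed in DU145, 36 in PC-3 and 34 in both. RNA sequencing was done on total RNA of 2 human prostate cancer cell lines after 48 h. The groups were DU145 with 120 µM OICR-9429, DU145 with DMSO, PC-3 with 150 µM OICR-9429 and PC-3 with DMSO, with 1 library each. WDR5, a scaffold of histone methyltransferase complexes, is the protein that the small molecule OICR-9429 binds, and DMSO is the solvent. DU145 and PC-3 are established lines from metastases. DU145 was grown in DMEM and PC-3 in RPMI1640, so line, dose and medium cannot be told apart, and these media differ in the amino acids they hold. All 4 cultures held 10% fetal bovine serum.

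Amino acid transporters work in sets. SLC7A light chains carry the substrate but reach the cell surface only when joined to a heavy chain of the SLC3A family. Exchangers such as SLC1A5 and SLC7A5 swap one amino acid for another, and so depend on sodium-coupled loaders of the SLC38A family. These loaders bring in glutamine and other small neutral amino acids. Several of these genes are known targets of ATF4, the transcription factor of the amino acid response, which acts with C/EBP partners on a composite DNA element. SLC7A11, the cystine carrier, is also a known target of NRF2, the regulator of antioxidant genes. The SLC6A family includes carriers of glycine and other amino acids, and also carriers of taurine, creatine, betaine, GABA and monoamines, so not all members are amino acid transporters in the narrow sense.

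A core of the ATF4 composite element was searched in promoters of the transporters. The core TGATGNAA was searched on both strands in RefSeq promoter windows of 300 bases (GRCh38.p14), from 250 bases before a start to 50 after it. It was found in 3.62% of 35116 windows. Windows were at hand for 36 of the 46 listed members, and 6 of these genes held a match in at least 1 window: SLC1A3, SLC1A4, SLC1A5, SLC3A2, SLC7A1 and SLC38A1. Of all genes with windows, 4.46% did. Among the 7 members that stood at least 2-fold higher in PC-3, 5 had windows and 3 held a match, against 3 of 18 other members with at least 1 CPM in PC-3. SLC7A11 and SLC7A2 were those without a window. By window, 27.3% of 11 held a match in the first group and 9.68% of 31 in the second. Windows of 1 gene are not separate units, and a gene with more windows has more places for a match. The 11 windows belong to 5 genes and the 31 to 18, against 35116 for 27305 genes in all. Of the 3 other members with a match, SLC1A3 was lower with OICR-9429 in both lines, and SLC7A1 and SLC38A1 were higher in both. Whether a match goes with the change in PC-3 was not tested. Members have 1 or more windows each, with 2 for SLC1A4 and 3 for SLC3A2. A match is a run of letters, not a site shown to be bound. The matches of these 3 genes are given below in capitals, with the window of SLC38A7, the member with the largest change among those higher in PC-3 that have a window and no match.
SLC1A4, chr2:64989249-64989418, plus strand, from 150 bases before the start to 20 after it: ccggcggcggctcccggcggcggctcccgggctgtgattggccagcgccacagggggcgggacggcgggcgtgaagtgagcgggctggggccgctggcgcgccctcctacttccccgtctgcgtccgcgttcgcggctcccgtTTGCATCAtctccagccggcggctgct
SLC1A5, chr19:46784795-46784964, minus strand, same span, 1 of 3 windows of the gene: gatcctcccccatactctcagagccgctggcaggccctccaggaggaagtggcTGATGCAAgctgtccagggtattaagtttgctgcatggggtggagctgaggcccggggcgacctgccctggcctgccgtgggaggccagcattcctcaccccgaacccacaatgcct
SLC3A2, chr11:62881719-62881748, plus strand, bases 21 to 50 after the start: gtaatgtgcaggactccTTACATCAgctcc
SLC38A7, chr16:58684751-58684920, minus strand, from 150 bases before the start to 20 after it: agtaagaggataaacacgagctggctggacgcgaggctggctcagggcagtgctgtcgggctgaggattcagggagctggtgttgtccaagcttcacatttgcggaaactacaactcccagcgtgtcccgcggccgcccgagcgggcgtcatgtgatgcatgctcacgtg
In SLC1A4 and SLC3A2 the match lies on the opposite strand, so the capitals show its complement read backwards.

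Levels are CPM, counts per 1e6 reads of a library. Changes are on the log2(CPM + 1) scale throughout, with DMSO subtracted from OICR-9429. Libraries held 27591000 to 29312000 fragments, as recovered from the deposited values. Ratios of CPM carry exact conditional binomial 95% intervals that cover counting error only. A gene was counted as higher or lower when it differed by at least 2-fold on the log2(CPM + 1) scale and had at least 1 CPM in the higher library, a rule of size with no test. With 1 library a group, no difference within a line has a replicate check. CTNNA1, which PC-3 lacks through a deletion, stood at 656 (OICR-9429) and 499 CPM (DMSO) in DU145 and at 3.45 (OICR-9429) and 2.73 CPM (DMSO) in PC-3. KRT8, KRT18 and EPCAM, markers of epithelial cells, stood between 31.3 and 562 CPM in the 4 libraries. Of 8 markers of blood, endothelial and stromal cells, 3 were listed in DU145 and 5 in PC-3. They summed to 5.63 CPM with OICR-9429 and 11.8 CPM with DMSO in DU145, and to 45.2 (OICR-9429) and 87.4 CPM (DMSO) in PC-3. COL1A1 and PECAM1 made up most of this, while CD3E and DCN were not listed in either line. The part of these markers in the transporter values was not tested.

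In PC-3 more transporters stood higher than lower with OICR-9429, and in DU145 the members past 2-fold stood lower. In PC-3, 7 of the 27 members with at least 1 CPM stood higher and 1 lower. These shares, 25.9% and 3.70%, compare with 7.15% higher and 8.68% lower of the 14623 genes at that level, and with 7.3% and 9.03% of protein-coding genes. In DU145, 0 of 33 members stood higher and 5 lower (15.2%), against 0.999% higher and 8.01% lower of 16120 genes and 1.03% and 7.76% of protein-coding genes. The 7 higher members in PC-3 were SLC7A11, SLC1A4, SLC3A2, SLC7A2, SLC38A7, SLC6A9 and SLC1A5, and the lower one was SLC7A6. The 5 lower members in DU145 were SLC38A3, SLC43A1, SLC7A2, SLC6A12 and SLC43A3. The median change of listed members was 0.22 in PC-3, against 0.00 for all listed genes, and −0.09 in DU145, against −0.11 for all listed genes. The DU145 median was 0.01 under median-of-ratios scaling and 0.07 among genes with at least 5 CPM. By family, the PC-3 median over members with at least 1 CPM was below 0 in SLC36A alone (−0.23). That family had 2 such members, SLC36A1 at 0.21 and SLC36A4 at −0.68. The median was 0.73 for SLC1A, 0.48 for SLC7A, 0.39 for SLC43A, 0.38 for SLC38A and 0.18 for SLC6A. For SLC3A the value, 1.56, is that of SLC3A2, the 1 member at that level in either line. In DU145 the family median was −1.04 for SLC43A and −0.39 for SLC3A, again SLC3A2 alone, and lay between −0.05 and 0.25 for the others. A further 9 members in PC-3 and 11 in DU145 were under 1 CPM in both libraries of the line, and 13 had no value here. Scaling by TMM raises DU145 changes by up to 0.19, and median-of-ratios scaling by up to 0.24. For PC-3 these shifts are 0.03 and 0.02. Under either, only SLC38A3 and SLC43A1 stayed past the rule in DU145, 6.25% of 32 members under each, against 5.39% of all genes under TMM and 4.85% under median-of-ratios scaling. There the lower share of members was near that of all genes. Under either, the same 7 higher members and SLC7A6 stayed past it in PC-3. Values for bulk RNA do not separate fewer cells from less RNA per cell.

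**Figure D1:**
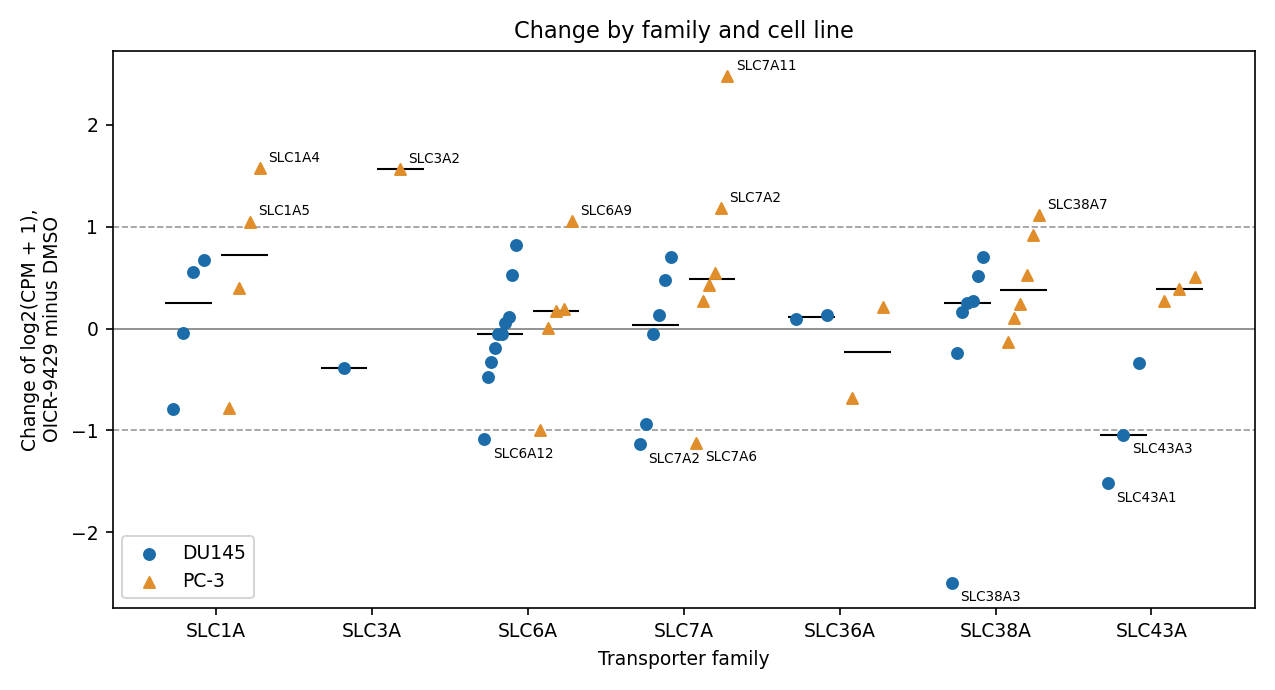
Change of log2(CPM + 1), OICR-9429 minus DMSO, for members with at least 1 CPM, by family. Circles are DU145 and triangles PC-3, each 1 library against 1, short bars are medians and dashed lines mark 2-fold. The labelled points are the members past 2-fold, 7 above and 1 below in PC-3 and 5 below in DU145.

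The heavy chain stood higher with OICR-9429 in PC-3 and lower in DU145. SLC3A2 (ENSG00000168003) encodes the heavy chain of CD98, which carries SLC7A5, SLC7A6, SLC7A7, SLC7A8, SLC7A10 and SLC7A11 to the cell surface. It stood at 332 CPM with OICR-9429 and 112 CPM with DMSO in PC-3 (ratio 2.97, interval 2.86 to 3.10). DU145 had 267 (OICR-9429) and 350 CPM (DMSO), with a ratio of 0.762 (0.739 to 0.785). The log2 change in DU145 was −0.39 and stayed below 0 under both other scalings. SLC3A1, the other heavy chain, which serves kidney and gut, had at most 0.362 CPM in any library. Of the exon length of SLC3A1, 54.6% is shared with other genes, PREPL on the opposite strand among them, and no source used here gives the strand setting of the counting.

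Among the light chains, SLC7A11 (ENSG00000151012) had the largest change in PC-3. It encodes xCT, which brings in cystine for glutathione synthesis in exchange for glutamate. It stood at 190 CPM with OICR-9429 and 33.3 CPM with DMSO in PC-3 (ratio 5.72, interval 5.34 to 6.13). DU145 had 271 (OICR-9429) and 166 CPM (DMSO), with a ratio of 1.63 (1.57 to 1.69), so the treated library was the higher in both lines. The DMSO library of PC-3 was the lowest of the 4 and the other 3 lay between 166 and 271 CPM. SLC7A11-AS1, which overlaps 8.97% of its exon length on the opposite strand, had 1.58 (OICR-9429) and 0.580 CPM (DMSO) in PC-3 and 5.06 (OICR-9429) and 3.04 CPM (DMSO) in DU145.

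SLC7A5, or LAT1, exchanges large neutral amino acids such as leucine for glutamine. It stood at 292 CPM with OICR-9429 and 216 CPM with DMSO in PC-3 (ratio 1.35, interval 1.30 to 1.39), and at 483 (OICR-9429) and 500 CPM (DMSO) in DU145 (ratio 0.965, interval 0.942 to 0.988). Neither change reached 2-fold, and the direction in DU145 turned under TMM and median-of-ratios scaling. SLC7A6, which exchanges cationic for neutral amino acids, was the 1 member past 2-fold on the lower side in PC-3. Its level was 12.2 (OICR-9429) and 27.7 CPM (DMSO) there (ratio 0.441, interval 0.387 to 0.501), and 29.5 (OICR-9429) and 20.9 CPM (DMSO) in DU145 (ratio 1.41, interval 1.26 to 1.57). SLC7A6OS, a protein-coding gene that overlaps it on the opposite strand and is no transporter, had 9.86 (OICR-9429) and 9.25 CPM (DMSO) in PC-3 and 13.1 (OICR-9429) and 13.7 CPM (DMSO) in DU145. Other genes cover 55.6% of the exon length of SLC7A6. SLC7A7, SLC7A8, SLC7A9, SLC7A10 and SLC7A13 were at most 1.15 CPM wherever listed. In DU145, SLC7A10 had 0 fragments with OICR-9429 and 0.652 CPM with DMSO, and the interval of the ratio reaches up to 0.221.

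Per kb of merged exons, levels can be set against each other between genes only roughly. The length used is that of all annotated exons of a gene joined, not that of the transcripts expressed. In PC-3 SLC3A2 stood at 64.2 CPM per kb with OICR-9429 and 21.6 with DMSO, and the sum of its light chains at 83.1 (OICR-9429) and 53.0 (DMSO) CPM per kb. The light chains therefore summed to 1.30 times the heavy chain with OICR-9429 and 2.46 times with DMSO. In DU145 the sum was 134 CPM per kb with OICR-9429 and 126 with DMSO, which is 2.60 times SLC3A2 with OICR-9429 and 1.86 times with DMSO. The ratio of light to heavy chain was thus lower with OICR-9429 in PC-3 and higher in DU145. SLC7A5 held most of the light chain sum in all 4 libraries, 73.9% with OICR-9429 and 86.2% with DMSO in PC-3, and 76.0% with OICR-9429 and 83.8% with DMSO in DU145. The share of SLC7A11 was 23.7% with OICR-9429 and 6.52% with DMSO in PC-3, and 21.0% with OICR-9429 and 13.7% with DMSO in DU145, higher with OICR-9429 in both lines. These are ratios of RNA levels, with 1 library a group, and lengths come from GENCODE 29 and not from the annotation used for counting. The size of each ratio between genes rests on these lengths, so it is not a ratio of molecules.

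**Figure D2:**
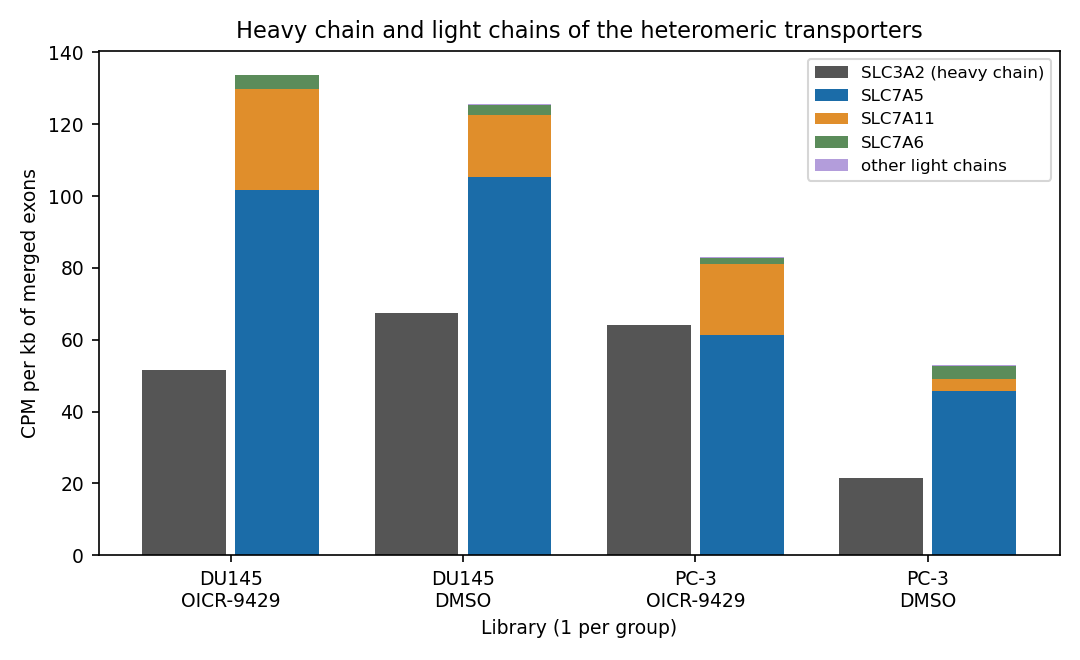
CPM per kb of merged exons for the heavy chain SLC3A2 and, stacked beside it, for its light chains, in the 4 libraries. SLC7A5 makes up most of each stack. The heavy chain bar of PC-3 is 64.2 with OICR-9429 and 21.6 with DMSO, while that of DU145 is 51.5 with OICR-9429 and 67.6 with DMSO.

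The cationic amino acid transporters of the SLC7A family need no heavy chain and carry arginine and lysine. SLC7A1, the widely expressed member, stood at 145 CPM with OICR-9429 and 120 CPM with DMSO in PC-3 and at 300 (OICR-9429) and 273 CPM (DMSO) in DU145, with ratios of 1.21 (1.16 to 1.27) and 1.10 (1.06 to 1.13). It was within 2-fold in both lines. SLC7A2 (ENSG00000003989), an inducible arginine carrier, was the 1 member past the rule of size in opposite directions. Its level was 19.4 (OICR-9429) and 7.95 CPM (DMSO) in PC-3 (ratio 2.43, interval 2.08 to 2.85), and 2.25 (OICR-9429) and 6.13 CPM (DMSO) in DU145 (ratio 0.367, interval 0.271 to 0.493). Under TMM or median-of-ratios scaling it stayed past the rule in PC-3 and no longer in DU145. SLC7A4, a related protein whose substrate is not settled, had 0.281 (OICR-9429) and 1.45 CPM (DMSO) in DU145 and was not listed in PC-3.

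The neutral exchangers of the SLC1A family both stood at least 2-fold higher in PC-3. SLC1A4 (ENSG00000115902), or ASCT1, carries alanine, serine and cysteine, and had 82.4 CPM with OICR-9429 and 26.9 CPM with DMSO in PC-3 (ratio 3.06, interval 2.82 to 3.32). In DU145 it had 77.4 (OICR-9429) and 48.1 CPM (DMSO), with a ratio of 1.61 (1.50 to 1.72). SLC1A5, or ASCT2, a glutamine exchanger, had 171 (OICR-9429) and 82.1 CPM (DMSO) in PC-3 (ratio 2.09, interval 1.99 to 2.191), and 191 (OICR-9429) and 197 CPM (DMSO) in DU145 (ratio 0.969, interval 0.933 to 1.01). For both genes the DMSO library of PC-3 was the lowest of the 4, and for SLC1A5 the 3 others lay between 171 and 197 CPM. Other genes on the opposite strand cover 23.8% of the exon length of SLC1A5. The glutamate and aspartate carriers SLC1A1 and SLC1A3 did not pass the rule of size. SLC1A1 had 11.0 (OICR-9429) and 8.12 CPM (DMSO) in PC-3 and 19.2 (OICR-9429) and 12.7 CPM (DMSO) in DU145, higher with OICR-9429 in both, while SLC1A3 had 6.15 (OICR-9429) and 11.3 CPM (DMSO) in PC-3 and 2.57 (OICR-9429) and 5.15 CPM (DMSO) in DU145, lower in both. In DU145 the CPM ratio of SLC1A3 was 0.499 (0.371 to 0.666), short of 2-fold on the log2(CPM + 1) scale alone. SLC1A7, a glutamate carrier of the retina, had 0 fragments with OICR-9429 in both lines, against 0.239 CPM with DMSO in PC-3 and 0.254 CPM in DU145. These DMSO values are 7 fragments each, and the intervals of the ratio reach up to 0.732 in PC-3 and 0.673 in DU145.

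The sodium-coupled SLC38A family held the most abundant members. Per kb of merged exons, SLC38A2 was the highest of all listed members in each library, at 190 with OICR-9429 and 132 with DMSO in PC-3 and at 179 with OICR-9429 and 125 with DMSO in DU145. SLC38A2, or SNAT2, is the neutral amino acid loader known to be induced when amino acids are scarce. Its ratios were 1.44 (1.42 to 1.46) in PC-3, from 1252 (OICR-9429) and 869 CPM (DMSO), and 1.43 (1.41 to 1.46) in DU145, from 1182 (OICR-9429) and 824 CPM (DMSO). SLC38A1, or SNAT1, had 1043 (OICR-9429) and 552 CPM (DMSO) in PC-3 (ratio 1.89, interval 1.85 to 1.93), and 788 (OICR-9429) and 483 CPM (DMSO) in DU145 (ratio 1.63, interval 1.60 to 1.67). Both loaders were higher with OICR-9429 in both lines without reaching 2-fold.

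The same family has members at the lysosome. SLC38A7, which exports glutamine from lysosomes, had 48.0 CPM with OICR-9429 and 21.6 CPM with DMSO in PC-3 (ratio 2.22, interval 2.02 to 2.44), and 37.2 (OICR-9429) and 30.6 CPM (DMSO) in DU145 (ratio 1.21, interval 1.11 to 1.33). SLC38A9, the lysosomal arginine sensor upstream of mTORC1, had 12.1 (OICR-9429) and 13.3 CPM (DMSO) in PC-3 (ratio 0.906, interval 0.780 to 1.05), and 18.8 (OICR-9429) and 22.4 CPM (DMSO) in DU145 (ratio 0.840, interval 0.746 to 0.944). The interval of SLC38A9 includes 1 in PC-3, and its change in DU145 was −0.24, −0.0072 under median-of-ratios scaling. SLC38A10 and SLC38A6 were within 2-fold in both lines, with ratios between 1.08 and 1.22. SLC38A3, a glutamine carrier of liver, kidney and brain, had the largest change in DU145. It had 0.246 CPM with OICR-9429 and 6.02 CPM with DMSO there (ratio 0.0409, interval 0.0162 to 0.0862), and was not listed in PC-3. SLC38A4 and SLC38A5 were under 1 CPM in every library.

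In the SLC6A family the glycine carrier was the member past 2-fold in PC-3. SLC6A9, or GLYT1, had 61.2 CPM with OICR-9429 and 28.96 CPM with DMSO in PC-3 (ratio 2.11, interval 1.94 to 2.30), and 32.0 (OICR-9429) and 29.4 CPM (DMSO) in DU145 (ratio 1.09, interval 0.988 to 1.20). The treated PC-3 library was the high one, and the 3 others lay between 28.96 and 32.0 CPM. The taurine carrier SLC6A6 was close to a ratio of 1 in both lines, with 136 (OICR-9429) and 135 CPM (DMSO) in PC-3 (ratio 1.00, interval 0.957 to 1.05), and 326 (OICR-9429) and 338 CPM (DMSO) in DU145 (ratio 0.965, interval 0.938 to 0.994). SLC6A8, the creatine carrier, had 123 (OICR-9429) and 108 CPM (DMSO) in PC-3 and 10.9 (OICR-9429) and 10.4 CPM (DMSO) in DU145, so the lines differed more than the treatments. SLC6A8 has a near-identical pseudogene, SLC6A10P, listed at 0.144 (OICR-9429) and 0.0341 CPM (DMSO) in PC-3, and the division of reads between them is uncertain.

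The carriers of GABA and betaine in that family had lower values with OICR-9429 wherever listed. SLC6A12, the betaine carrier, had 3.06 CPM with OICR-9429 and 7.61 CPM with DMSO in DU145 (ratio 0.402, interval 0.309 to 0.518), and was not listed in PC-3. SLC6A11, a GABA carrier, had 1.87 (OICR-9429) and 4.71 CPM (DMSO) in PC-3 and 5.24 (OICR-9429) and 7.68 CPM (DMSO) in DU145. Its log2 change in PC-3 was −0.99, just short of the rule, and it passed under median-of-ratios scaling. SLC6A13, another GABA carrier, had 0.633 (OICR-9429) and 1.05 CPM (DMSO) in DU145. SLC6A14, a broad carrier of neutral and cationic amino acids, had 4.15 (OICR-9429) and 4.35 CPM (DMSO) in DU145. In PC-3 it had 0 fragments with OICR-9429 and 0.444 CPM with DMSO, and the interval of the ratio reaches up to 0.346. SLC6A3, the dopamine carrier, was listed in DU145 alone, with 4.85 (OICR-9429) and 2.32 CPM (DMSO), and SLC6A17, a vesicular carrier of neutral amino acids, with 16.2 (OICR-9429) and 10.9 CPM (DMSO). The orphan carrier SLC6A16 had 1.40 (OICR-9429) and 1.13 CPM (DMSO) in PC-3 and 4.04 (OICR-9429) and 4.75 CPM (DMSO) in DU145, and SLC6A4, SLC6A7 and SLC6A20 were under 1 CPM wherever listed.

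In the facilitative SLC43A family 2 of 3 members stood at least 2-fold lower in DU145, and SLC43A1 alone did under TMM or median-of-ratios scaling. SLC43A1, or LAT3, which carries branched-chain amino acids and was first described as overexpressed in prostate cancer, had 4.32 CPM with OICR-9429 and 14.3 CPM with DMSO there (ratio 0.303, interval 0.245 to 0.372). SLC43A3, which carries purine bases, had 2.07 (OICR-9429) and 5.33 CPM (DMSO), with a ratio of 0.389 (0.283 to 0.530). SLC43A2, or LAT4, had 27.9 (OICR-9429) and 35.4 CPM (DMSO), with a ratio of 0.787 (0.716 to 0.866). All 3 were lower in the treated DU145 library, also under both other scalings. In PC-3 all 3 were higher with OICR-9429 and within 2-fold. SLC43A1 had 37.1 (OICR-9429) and 25.9 CPM (DMSO) there, SLC43A2 had 11.1 (OICR-9429) and 8.22 CPM (DMSO) and SLC43A3 had 16.7 (OICR-9429) and 13.7 CPM (DMSO). The proton-coupled SLC36A family, whose member SLC36A1 exports small amino acids from lysosomes, had no member past 2-fold in either line. SLC36A1 had 28.8 (OICR-9429) and 24.7 CPM (DMSO) in PC-3 and 28.7 (OICR-9429) and 26.0 CPM (DMSO) in DU145, while SLC36A4 had 26.7 (OICR-9429) and 43.5 CPM (DMSO) in PC-3 (ratio 0.614, interval 0.561 to 0.673), and 66.1 (OICR-9429) and 62.0 CPM (DMSO) in DU145. SLC36A3 was listed in PC-3 at 0.0719 (OICR-9429) and 0.171 CPM (DMSO).

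**Figure D3:**
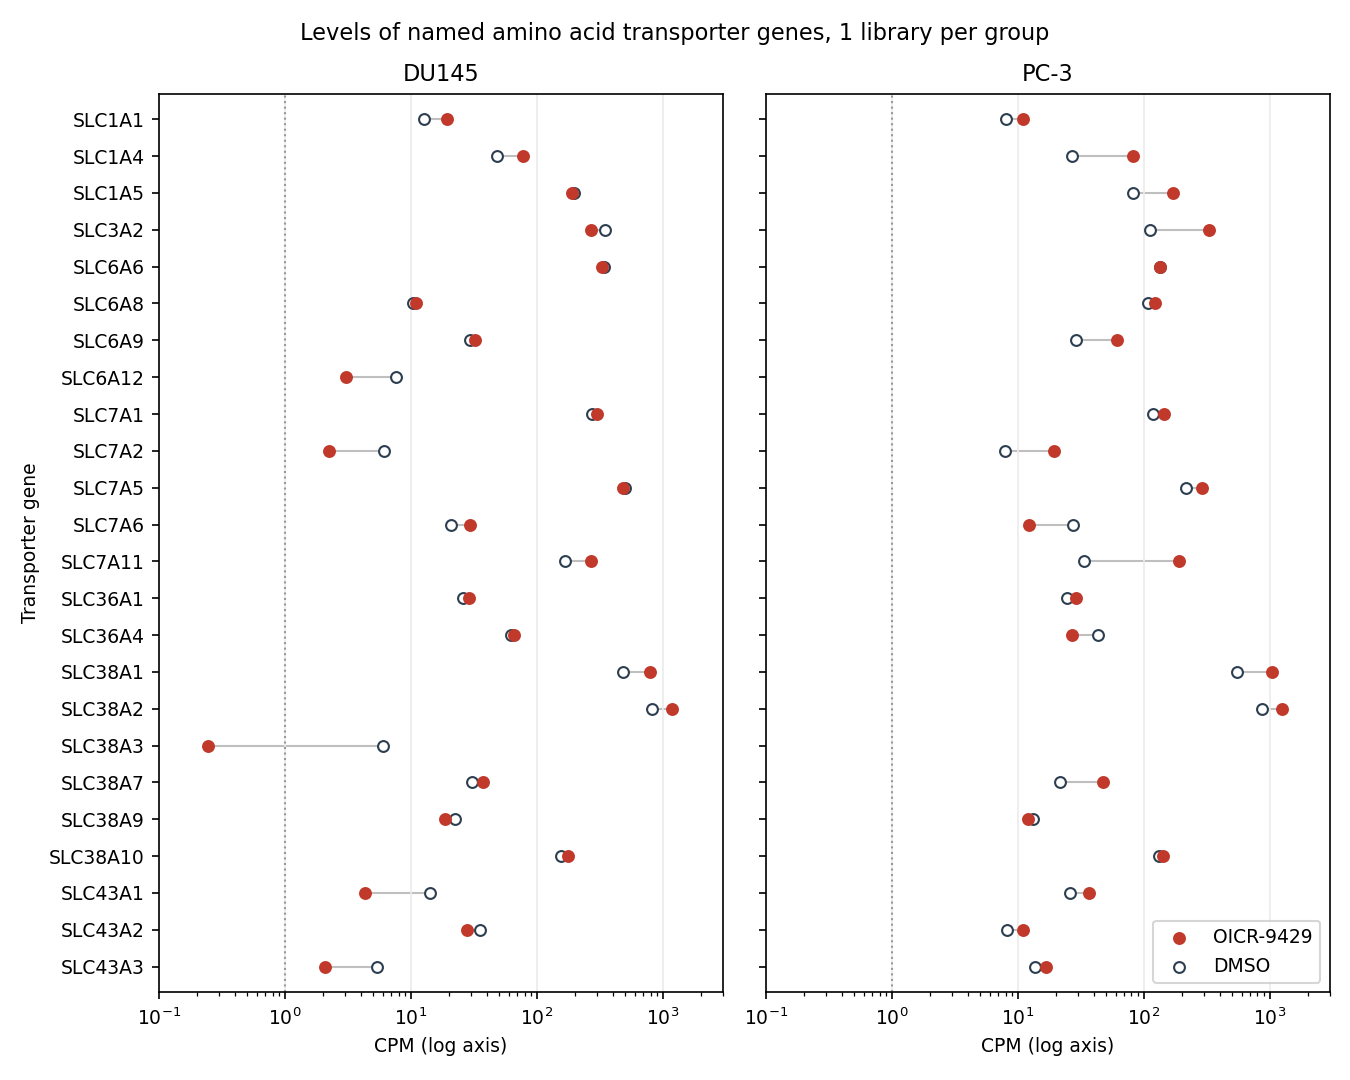
CPM on a log axis for the named members with at least 1 CPM in a library, in DU145 (left) and PC-3 (right). Filled points are OICR-9429 and open points DMSO, 1 library each, and the dotted line marks 1 CPM. The longest gaps are those of SLC38A3 in DU145 and of SLC7A11 in PC-3.

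The 2 lines were then taken as replicates to ask which transporters changed on average over both. A change in 1 line alone can move this average, so the test does not ask for a change in each. Of the 27 members tested in limma with trend among 14976 genes, 0 rose and 0 fell (Benjamini-Hochberg adjusted p at 0.05), against 0.12% and 1.16% of all genes. At an unadjusted p under 0.05 there were 2 members, SLC7A11 and SLC1A4, while 8.89% of all genes were at that level. SLC7A11 was higher by 1.59 ± 0.39 on the log2 scale on average (SE, limma, adjusted p = 0.070), in both lines. It passed with TMM scaling in limma (adjusted p = 0.036), with DESeq2 (adjusted p = 0.016) and with limma-voom (adjusted p = 0.030). It did not pass with edgeR (adjusted p = 0.15, and 0.19 with TMM), with limma and median-of-ratios scaling (0.16) or without the line term (1.00). Nor did it pass in limma with a pseudocount of 0.1 (adjusted p = 0.059), a minimum of 5 CPM (0.067) or no minimum (0.091). SLC1A4 was higher by 1.13 ± 0.33 on average (SE, limma, adjusted p = 0.16) and passed in none of the alternatives run, whose adjusted p-values ran between 0.096 and 1.00. With 1 residual degree of freedom, these errors rest mostly on the trend over all genes.

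Several averages combined unlike values of the lines. Of the 26 members with at least 1 CPM in each line, 12 were higher with OICR-9429 in both, 3 lower in both, 9 higher in PC-3 and lower in DU145, and 2 the reverse. PC-3 minus DU145, the difference of these signed changes was above 0 for 20 of the 26. All genes with at least 1 CPM also leaned lower in DU145, where 10489 of 16120 were below 0 and the median was −0.18. In PC-3, 7389 of 14623 were below 0 and the median was −0.0082. The share of all genes with a difference above 0 was not counted, so these counts are not read as a trait of the transporters. The signs of SLC1A5, SLC6A6 and SLC7A5 in DU145 turned under both other scalings. The average of SLC3A2 was 0.59 ± 0.42 (SE, limma, adjusted p = 0.81), made from 1.56 in PC-3 and −0.39 in DU145. The average of SLC7A2 was 0.03 ± 0.53 (SE, limma, adjusted p = 0.998), made from 1.19 in PC-3 and −1.13 in DU145. A test of the difference between the lines could not be made, since no residual degrees of freedom would remain.

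**Figure D4:**
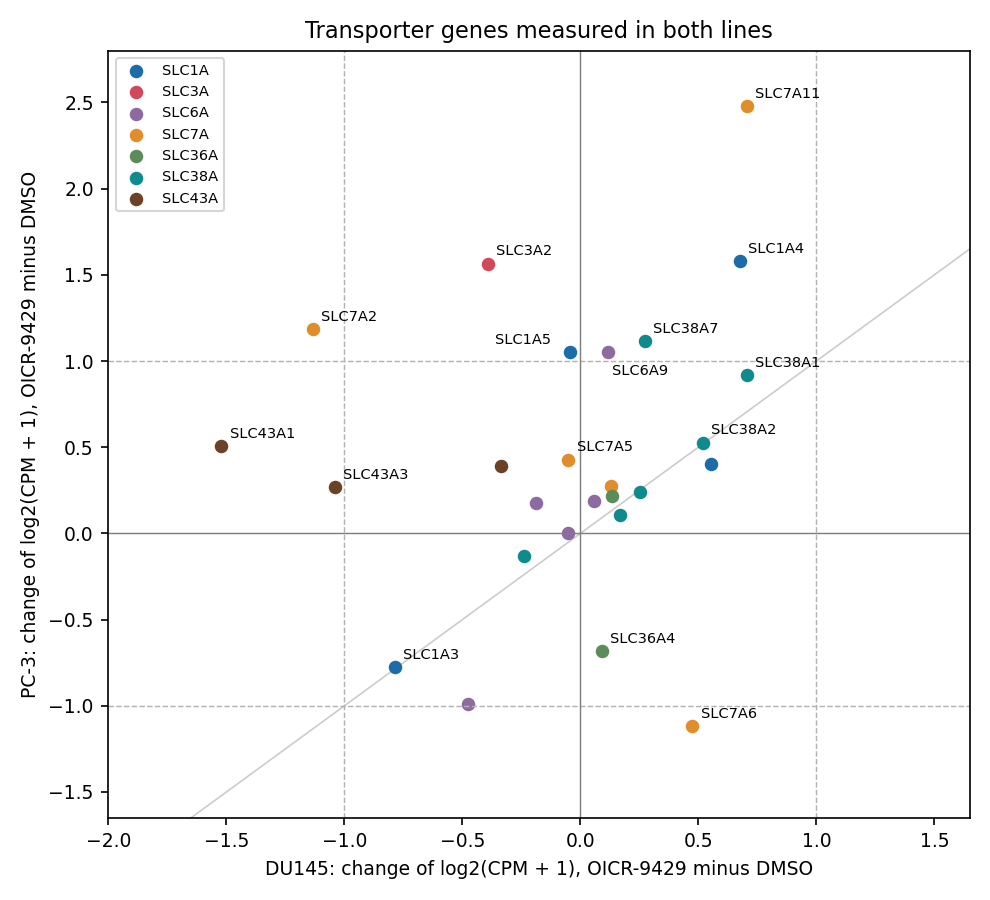
Change of log2(CPM + 1), OICR-9429 minus DMSO, in PC-3 (vertical) against DU145 (horizontal) for the 26 members with at least 1 CPM in each line, coloured by family. Dashed lines mark 2-fold and the grey diagonal equal changes. SLC7A11 and SLC1A4 lie to the upper right, and SLC3A2, SLC7A2 and the SLC43A members to the upper left.

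The genes of the amino acid response stood higher in PC-3 with OICR-9429, as a list, and within 2-fold in DU145. This list was chosen with earlier results of these data known, so its shares do not come from a blind choice. Of 15 genes, 12 stood at least 2-fold higher in PC-3 and 0 lower, against 7.15% and 8.68% of all genes, with a median of 1.96. In DU145, 0 of 15 were past 2-fold and the median was −0.14. In the average of both lines 0 of 15 passed (limma, adjusted p), with 8 at an unadjusted p under 0.05, against 8.89% of all genes. A change in PC-3 alone can move this average. Among the 8, SESN2 had a DU145 change of 0.42, while DDIT3, TRIB3, DDIT4 and ASNS had −0.15, −0.051, −0.40 and −0.0030. SESN2, a leucine sensor and ATF4 target, had 115 CPM with OICR-9429 and 20.9 CPM with DMSO in PC-3 and 77.1 (OICR-9429) and 57.4 CPM (DMSO) in DU145. DDIT4, an inhibitor of mTORC1 signalling, had 86.6 (OICR-9429) and 7.30 CPM (DMSO) in PC-3 and 85.0 (OICR-9429) and 112 CPM (DMSO) in DU145. ATF4 itself had 555 (OICR-9429) and 219 CPM (DMSO) in PC-3 and 512 (OICR-9429) and 475 CPM (DMSO) in DU145. DDIT3 and TRIB3 had log2 changes of 3.43 and 3.14 in PC-3 and of −0.15 and −0.051 in DU145. For ATF4 and DDIT4, as for SLC1A5 and SLC3A2, the DMSO library of PC-3 was the lowest of the 4. ASNS, the asparagine synthetase and a standard ATF4 target, was named after its values were seen. Its level was 324 (OICR-9429) and 325 CPM (DMSO) in DU145 but 6.48 (OICR-9429) and 1.09 CPM (DMSO) in PC-3.

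**Figure D5:**
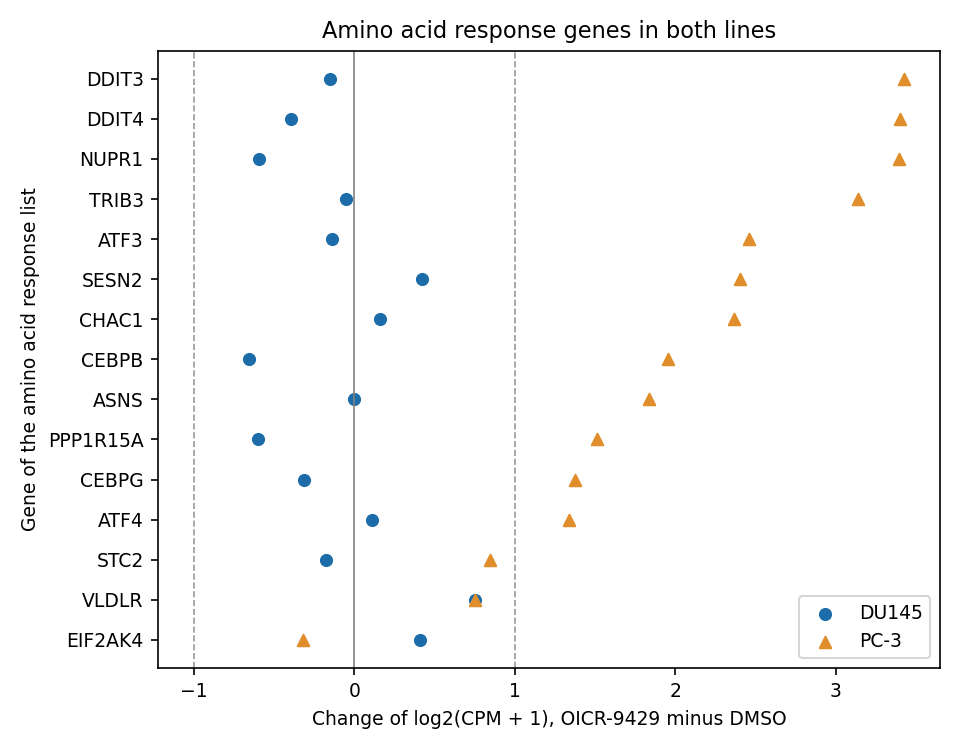
Change of log2(CPM + 1), OICR-9429 minus DMSO, for the 15 genes of the amino acid response list, circles for DU145 and triangles for PC-3, 1 library against 1. Dashed lines mark 2-fold. In PC-3, 12 of 15 lie beyond it on the higher side, and in DU145 none do.

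The lists that follow were also chosen with earlier results of these data known. They are read against the shares of all genes, 7.15% higher and 8.68% lower in PC-3, and 0.999% higher and 8.01% lower in DU145. Of 21 genes of lysosomal amino acid sensing, 20 had at least 1 CPM in each line, of which 3 were higher by 2-fold in PC-3 and 0 in DU145, with 0 lower in either line. The 3 were the Rag GTPase RRAGC, with 54.9 (OICR-9429) and 15.7 CPM (DMSO), the Rag GTPase RRAGD, with 7.52 (OICR-9429) and 1.23 CPM (DMSO), and FLCN, their regulator folliculin, with 38.0 (OICR-9429) and 11.3 CPM (DMSO). SESN3 was within 2-fold on the log2(CPM + 1) scale, though not as a ratio of CPM (2.03, 1.25 to 3.36) in PC-3, with 1.87 (OICR-9429) and 0.921 CPM (DMSO) in PC-3 and 73.8 (OICR-9429) and 46.7 CPM (DMSO) in DU145. Of the mitochondrial amino acid carriers 1 of 7 was higher and 1 lower in PC-3, and 0 of 8 in DU145. SLC25A29, which carries basic amino acids, had 90.0 (OICR-9429) and 32.6 CPM (DMSO) in PC-3, and SLC25A12, an aspartate-glutamate carrier, had 19.0 (OICR-9429) and 40.3 CPM (DMSO).

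Among transporters of other families, 3 of 5 stood higher in PC-3, against 7.15% of all genes, and 1 of 8 lower in DU145, against 8.01%. CTNS, the lysosomal cystine exporter, had 132 CPM with OICR-9429 and 25.0 CPM with DMSO in PC-3 and 45.8 (OICR-9429) and 36.0 CPM (DMSO) in DU145. SLC66A1, a lysosomal exporter of cationic amino acids, had 53.6 (OICR-9429) and 25.4 CPM (DMSO) in PC-3 and 28.8 (OICR-9429) and 20.2 CPM (DMSO) in DU145. Both were higher with OICR-9429 in both lines. SLC15A3, a lysosomal carrier of histidine and peptides, was the higher by 2-fold in PC-3, with 2.63 (OICR-9429) and 0.375 CPM (DMSO), and the lower in DU145, with 0.563 (OICR-9429) and 2.17 CPM (DMSO). The list also held SLC47A1, an exporter of organic cations, with 10.0 (OICR-9429) and 17.6 CPM (DMSO) in DU145. SLC17A7, a vesicular glutamate carrier, had 0.492 (OICR-9429) and 1.70 CPM (DMSO) there.

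Among genes of glutathione and glutamine use, 2 of 9 stood higher in PC-3, against 7.15% of all genes. With 1 of 9 lower in PC-3 and 1 of 10 lower in DU145, the lower shares were near those of all genes, 8.68% and 8.01%. GCLC, the catalytic subunit of glutamate-cysteine ligase, which uses the cysteine that SLC7A11 supplies, had 166 CPM with OICR-9429 and 59.9 CPM with DMSO in PC-3 and 341 (OICR-9429) and 181 CPM (DMSO) in DU145. The treated library was the higher in both lines, short of 2-fold in DU145. CBS, of the transsulfuration route to cysteine, had 5.50 (OICR-9429) and 1.19 CPM (DMSO) in PC-3 and 51.4 (OICR-9429) and 44.0 CPM (DMSO) in DU145. GGCT, a cyclotransferase, had 2.88 (OICR-9429) and 7.30 CPM (DMSO) in PC-3, and GGT1, which breaks down glutathione outside cells, had 1.93 (OICR-9429) and 5.94 CPM (DMSO) in DU145. In the average of both lines 0 genes of these 4 lists passed (limma, adjusted p), with 4 of 45 at an unadjusted p under 0.05, a share near the 8.89% of all genes.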

How the data were processed

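Total RNA of 4 libraries was sequenced, with groups, doses and the 48 h time taken from the labels. The authors deposited 1 table per library of Ensembl identifiers with CPM values. Tools in the submitters' processing notes, which state no role, are HISAT2 2.1.0, HTSeq 0.6.1 and bcl2fastq 2.19.1, with the build hg19. Gene annotation and strand setting: not given in the sources used here. In each library the CPM values fell on multiples of a single step (100% within 0.01 step), so whole reads were recovered. Reads were even in number apart from values of exactly 1 step (111 to 519 per library), which were taken as 0, and 2 reads were counted as 1 fragment. At this depth 3 fragments are 0.102 to 0.109 CPM. Unlisted genes were given no value, and PCR copies cannot be told from molecules.

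Symbols came from a current table for 27302 identifiers and from GENCODE 29 for 191, with 165 unnamed. SLC7A6OS was left out, since its symbol has letters after the number and it is no transporter. The reference is on another build than hg19 and gave names, gene types, merged exon lengths, overlaps and RefSeq promoters only. The main test across lines was limma 3.58.1 with trend, its terms being treatment and line, on log2(CPM + 1), for 14976 genes over 1 CPM in at least 2 libraries (prior 12.8 degrees of freedom). Libraries of the same line pair the groups, so the line is a term of that fit. The fit was also run on simulated counts that had no difference between lines and the same changes in both, unlike these data. That run cannot show how the fit behaves where the lines differ. Alternatives were a pseudocount of 0.1, TMM and median-of-ratios scaling, a minimum of 5 CPM or none, edgeR 4.0.16, DESeq2 1.42.0 and limma-voom on recovered fragments, and no line term. Members and lists were chosen with earlier results of these data known. Named members are those past the rule of size, the 3 highest by mean CPM per family, and 8 others whatever their values. In each list the rule names the 4 with the largest absolute mean change. Members outside the rule (SLC1A3, SLC1A7, SLC6A3, SLC6A11, SLC6A13, SLC6A14, SLC6A16, SLC6A17, SLC7A4 and SLC7A10) and ATF4, ASNS and SLC15A3 are named after their values were seen.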

Additional observations from a re-analysis of the deposited data

Results flagged for a closer look

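SLC7A2, an arginine carrier, went in opposite directions in the 2 lines: 19.4 CPM with OICR-9429 and 7.95 CPM with DMSO in PC-3, and 2.25 (OICR-9429) and 6.13 CPM (DMSO) in DU145. The PC-3 change minus the DU145 change was 2.32 on the log2(CPM + 1) scale, and this difference was not tested, with 1 library per group. Under TMM or median-of-ratios scaling the DU145 change no longer reached 2-fold.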

How the results depend on the processing

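In DU145, 5 members were lower by the rule of size, and 2 under TMM and 2 under median-of-ratios scaling. With a pseudocount of 0.1, 1 member was higher in DU145, SLC6A3, against 0. In PC-3, 2 members were lower with a pseudocount of 0.1 and 2 under median-of-ratios scaling, against 1, SLC6A11 being added. The 7 higher in PC-3 became 8 with a pseudocount of 0.1. Members past the rule in opposite directions numbered 1, and 0 under TMM and 0 under median-of-ratios scaling. Across both lines 1 member, SLC7A11, was called higher under TMM scaling, 1 with DESeq2 and 1 with limma-voom, against 0. The other alternatives left these counts as they were or within 1 member, and medians ran between −0.15 and 0.07 in DU145 and between 0.22 and 0.40 in PC-3. Without the replicate block, the line term, 0 members and 0 of 14976 genes were called (limma), 0 members being at an unadjusted p under 0.05.

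Averages across lines turned sign where they lay near 0. SLC6A6 was 0.083 under TMM, 0.11 under median-of-ratios scaling, 0.060 with edgeR and TMM and 0.074 with DESeq2. SLC7A2 was −0.066 with a pseudocount of 0.1 and −0.045 with edgeR, and SLC43A2 −0.070 with limma-voom. The cause was not tested. Leaving out a line leaves the other line's change: SLC1A5 −0.045 to 1.05, SLC3A2 −0.39 to 1.56, SLC6A6 −0.051 to 0.0019, SLC7A2 −1.13 to 1.19, SLC7A5 −0.051 to 0.43, SLC7A6 −1.12 to 0.47, SLC36A4 −0.68 to 0.091, SLC43A1 −1.52 to 0.51, SLC43A2 −0.33 to 0.39 and SLC43A3 −1.04 to 0.27. The edgeR fit with TMM and the count of opposite members were chosen after seeing the data. With 1 library per group, no replicate error within a line exists, and under 1 CPM counting error is wide.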
